A study of Oryza sativa with 3 samples.

Results

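The 10 genes described here make the diterpenoid phytoalexins of rice, or in 1 case switch on the genes that make them. They were taken by their rice locus numbers, and all 10 had probes among the 29689 loci on the array. The momilactone cluster on chromosome 4 gave 5 of them, which are CPS4 (Os04g0178300), KSL4 (Os04g0179700), MAS (Os04g0179200), CYP99A2 (Os04g0180400) and CYP99A3 (Os04g0178400). The phytocassane cluster on chromosome 2 gave 3, which are CPS2 (Os02g0571100), KSL7 (Os02g0570400) and CYP76M7 (Os02g0569900). KSL10 (Os12g0491800) lies on chromosome 12, and DPF (Os01g0196300), for a transcription factor, lies on chromosome 1. The array carries 16 probes for these loci, between 1 and 3 each. The array files give locus numbers without gene names, and 8 of the 10 symbols were found in a RefSeq gene table on the chromosome that the locus number names and in the same order. CYP76M7 and DPF were not, and their names rest on the locus number alone. KSL10 was the only chromosome 12 locus found there, so its chromosome could be checked and its order could not.

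Phytoalexins are small antimicrobial compounds that a plant makes on attack or stress. In rice most of them are diterpenoids built in the plastid from geranylgeranyl diphosphate, which a class II cyclase (a copalyl diphosphate synthase, CPS) folds first and a class I synthase (a kaurene synthase-like enzyme, KSL) folds next, before cytochrome P450 enzymes and dehydrogenases add oxygen. CPS4 makes the syn form of copalyl diphosphate, which leads to momilactones, and CPS2 the ent form, which leads to phytocassanes and most oryzalexins. Rice roots also release momilactones into the soil, where they slow the growth of neighbouring plants.

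Roots of 6-day-old seedlings of the cultivar TN-67 exposed to vanadium, a transition metal, at 1 mM were compared with roots of seedlings of the same cultivar and age given water. Each of 3 two-colour Agilent arrays held the vanadium RNA, labelled with Cy5 (red), and the water RNA, labelled with Cy3 (green), of 1 biological replicate. The series addresses the early response of the root to vanadium, and the labels give neither the exposure time nor how many seedlings went into a sample. The dyes were not swapped, so a gene-specific dye effect cannot be told apart from the treatment.

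Of the 29689 loci, 21086 had a probe that was well above background in one channel on all 3 arrays and were tested. Per array, 31278 to 32243 of 41889 gene probes exceeded background clearly in red and 29259 to 31918 in green, where negative control spots were the brighter (89 to 160 against 62 to 68). Replicate 1 lay on one slide and replicates 2 and 3 on another. Of 6 root marker loci, 4 were tested. The summed signal of the 6 was 239174.5 to 259376 under vanadium and 122201 to 211911.5 in water, most of it from 1 locus, and the other 5 summed to 3513 to 6814 and 18568.5 to 21693. The silicon transporter genes LSI1 and LSI2 fell by 2.06 and 1.02 on the log2 scale and the brightest locus rose (not called with the mean of its probes), while the root nitrate transporter gene NRT2.1 and SCR1, a regulator of root tissue layers, were not well above background in enough arrays to be tested. None of 4 seed storage protein loci was well above background on any array. All 5 green shoot loci were well above background on at least 1 array, with summed signals of 13616.5 to 23409.5 in the vanadium channel and 18310.5 to 20507 in the water channel, again mostly from 1 locus.

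Among the 10, the momilactone genes gave the largest differences. KSL4, CYP99A2, MAS and CPS4 rose under vanadium, KSL4 by the most and CPS4 by the least, each with its highest ratio on replicate 1. CYP99A3, from the same cluster, did not pass the test and had ratios of both signs. DPF and KSL7 also rose, by smaller amounts, and CPS2, CYP76M7 and KSL10 were too dim to be tested. In all, 6 of the 7 tested loci were called higher and 0 lower in limma's test with Benjamini-Hochberg adjustment over all loci, at a threshold of 0.05, where 29.8% of the 21086 tested loci were called higher and 21.3% lower (51.1% in either direction). The probes used for all 6 had passed the filter on dim probes only through the vanadium channel, in which they had to be bright. The number and the median of the 6 loci are therefore not read against these shares. A second CPS4 probe passed the filter through both channels. In bulk RNA, more cells that express a gene and more RNA per expressing cell cannot be told apart.

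**Figure D1:**
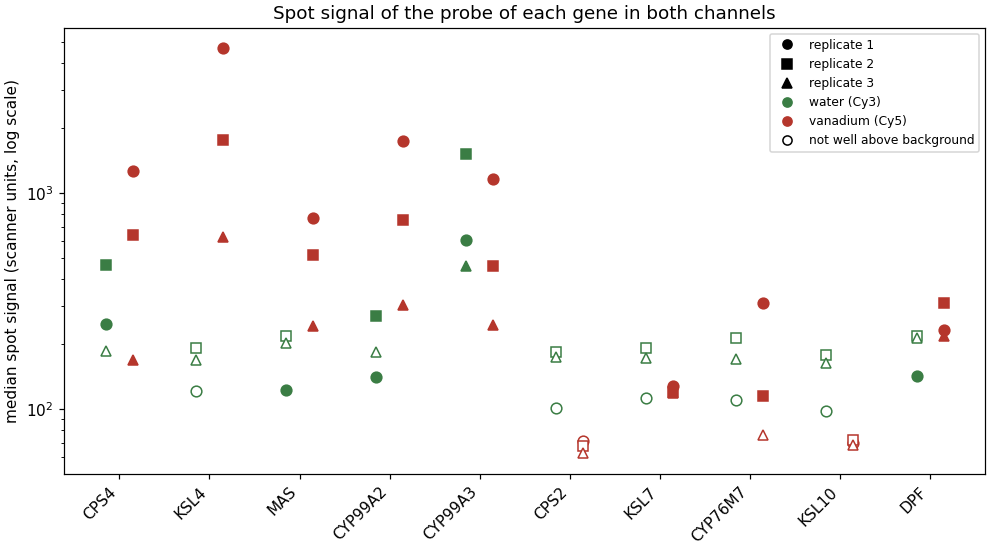
Median spot signal of each gene in scanner units, before background subtraction, on a log axis, for the probe used in the test or, for the 3 untested genes, their only probe. Each point is 1 array and 1 channel, filled where the spot was well above background. The KSL4 water signals of 121 to 192 were below that limit on all 3 arrays, whereas the CYP99A3 signals were above it in both channels on all 3.

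CPS4 catalyses the first committed step of momilactone synthesis. Its brightest probe had vanadium signals of 1266.5, 640.5 and 168 on replicates 1, 2 and 3, and water signals of 246.5, 463.5 and 186 (scanner units, before background subtraction). The signals of the 2 channels overlap, and the dyes differ in brightness, so they are compared below as normalised ratios within each array. The normalised log2 ratios of vanadium over water were 3.24, 0.72 and 0.67. They were above 0 on all 3 arrays, with replicate 1 far above the other 2. On replicate 3 the raw water signal was the brighter, so the sign of the ratio there comes from the background correction and the normalisation. The mean was 1.54 ± 0.48 (SE of limma's fit, n = 3 arrays) with an adjusted p of 0.0364. That water signal was well above background on 2 of 3 arrays. A second probe, which was well above background in both channels on all 3 arrays, had ratios of 2.13, 0.37 and 0.32. Its raw water signal was also the brighter on replicate 3 (283 against 243). This probe did not pass the threshold (adjusted p = 0.0598 in limma's fit over all kept probes). The dimmest probe had ratios of 1.90, 0.36 and 0.00 and was not kept. CPS4 no longer passed without replicate 2 (1.95, adjusted p = 0.0506), nor with the mean of its kept probes in place of the brightest (1.24, adjusted p = 0.0527). The same held for a filter that required both channels to be bright (0.94, adjusted p = 0.0538), which uses the second probe.

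KSL4 encodes the synthase that turns the product of CPS4 into the pimaradiene backbone of momilactones. Its brightest probe had vanadium signals of 4687, 1766 and 627 and water signals of 121, 192 and 168. Every vanadium signal lay above every water signal, and none of the water signals was well above background. Normalised log2 ratios were 6.32, 3.75 and 2.77, with a mean of 4.28 ± 0.60 and an adjusted p of 0.00173. Because the water level has only a bound, the mean fold of this probe over the 3 arrays is given as at least 17.1-fold higher. This sets the mean normalised vanadium signal against, on each array, the higher of the gene's own water signal and the lowest water signal of any probe well above background, and like every ratio here it is open to dye bias. It bounds the water level only and is not a minimum for the gene. Without replicate 1 the ratio of the same probe was 9.58-fold. A second probe had vanadium signals of 735, 348 and 178 and water signals of 101, 202 and 195, again none of them well above background in water. Its ratios were 3.82, 1.35 and 0.72 (at least 3.53-fold higher, adjusted p = 0.0225). On replicate 3 its raw water signal was the brighter, so the sign of that ratio comes from the background correction and the normalisation. Both probes gave the same order of arrays, with replicate 1 highest and replicate 3 lowest, and sizes that differed.

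CYP99A2 and CYP99A3 encode related cytochrome P450 enzymes that oxidise the pimaradiene. The single CYP99A2 probe had vanadium signals of 1743, 751 and 304 and water signals of 141, 271 and 184. Vanadium was brighter in all 3 arrays, and the water signal was well above background on 2 of them. The log2 ratios of CYP99A2 were 4.68, 1.89 and 1.56, with a mean of 2.71 ± 0.56 and an adjusted p of 0.00831. CYP99A3 behaved differently. Its vanadium signals were 1160, 459.5 and 245 and its water signals 609, 1515.5 and 458, with both channels well above background on all 3 arrays, so the channels overlap. The CYP99A3 log2 ratios were 1.70, -1.68 and -0.46, higher in vanadium on replicate 1 and lower on the others. The mean of -0.15 ± 0.56 was not called (adjusted p = 0.843). Without replicate 1, CYP99A3 was called lower, at -1.07 with an adjusted p of 0.00915. Without replicate 2 its mean was 0.62, without replicate 3 it was 0.01, and with the slide as a block it was 0.32. Whether transcripts of either P450 gene bind the other's probe was not tested.

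MAS encodes a dehydrogenase that completes momilactone A. Its brightest probe had vanadium signals of 763.5, 518 and 243.5 and water signals of 123, 218 and 202, of which only replicate 1 was well above background in water. All 3 vanadium signals lay above the 3 water signals. The log2 ratios were 3.54, 1.87 and 1.1, with a mean of 2.17 ± 0.41 and an adjusted p of 0.00581. A second MAS probe had ratios of 3.39, 1.57 and 0.91 (adjusted p = 0.00960). The dimmest MAS probe was not well above background in either channel on any array, with vanadium signals of 71 to 83 and ratios of 0.51, -0.07 and -0.05. The probes of MAS therefore fall into a pair that rose and a dim one that carries no measured level.

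**Figure D2:**
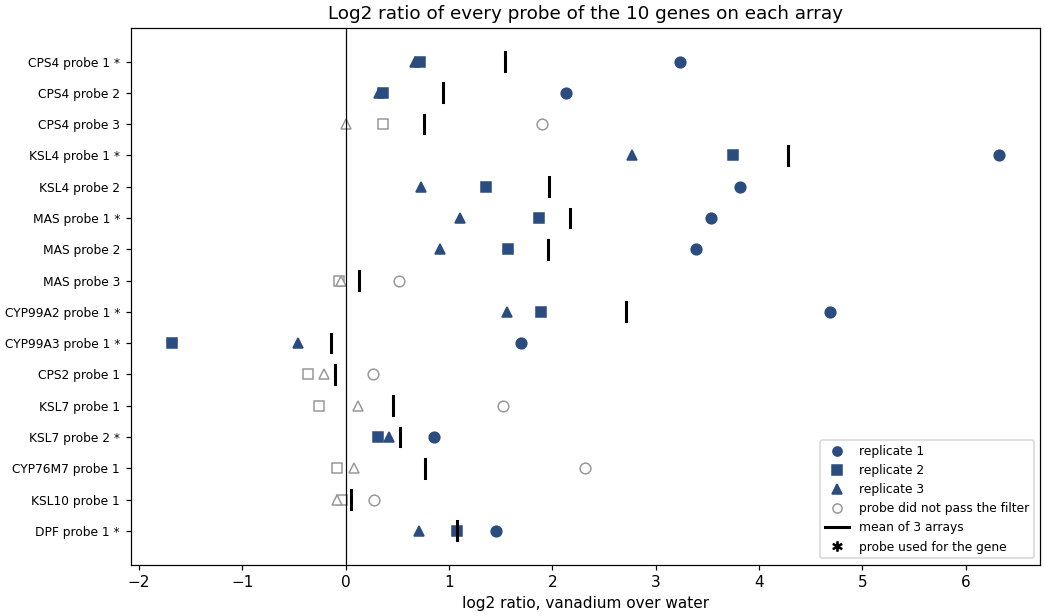
Normalised log2 ratio of vanadium over water for each of the 16 probes, with 1 marker per array and the bar at the mean. An asterisk marks the probe used for its locus, and open markers a probe that did not pass the filter. Replicate 1 lies to the right of replicates 2 and 3 for every probe shown, and for the probes used at the 5 chromosome 4 genes it exceeds the mean of the others by 2.05 to 3.06. That includes 3 probes with no measured level, of CPS2 (0.27, -0.37 and -0.21), KSL10 (0.28, -0.03 and -0.08) and MAS (0.51, -0.07 and -0.05).

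DPF encodes a basic helix-loop-helix factor known in rice as an activator of diterpenoid phytoalexin genes of both clusters. Its vanadium signals were 233, 311 and 217.5 and its water signals 142, 217 and 214.5, of which only replicate 1 was well above background in water. The lowest vanadium signal exceeded the highest water signal. Normalised log2 ratios were 1.46, 1.08 and 0.71, closer together than those of the momilactone genes. The mean was 1.08 ± 0.14, or 2.12-fold, with an adjusted p of 0.00134.

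The phytocassane genes of chromosome 2 were dim. KSL7 encodes the synthase that makes the cassadiene from which phytocassanes are built. The KSL7 probe that passed the filter had vanadium signals of 128, 119.5 and 118.5 and water signals of 113, 191 and 173, none of the latter well above background. Its log2 ratios were 0.86, 0.31 and 0.42, with a mean of 0.53 ± 0.12 and an adjusted p of 0.0117. Set against the bound of the water level as for KSL4, the mean was at least 1.31-fold higher after normalisation. That bound rests on the same normalisation and is not a minimum for the gene. The raw water signal was the brighter on replicates 2 and 3, so the sign of the ratio there comes from the background correction and the normalisation. A brighter KSL7 probe, well above background in the vanadium channel on replicate 1 only, had ratios of 1.52, -0.26 and 0.12. With no filter on dim probes this second probe stands for KSL7, and the call was lost (0.46, adjusted p = 0.278).

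CPS2, the class II cyclase gene of this branch, had vanadium signals of 71, 67.5 and 62.5 and was not well above background in either channel on any array. CYP76M7, which encodes a P450 that hydroxylates the cassadiene, had vanadium signals of 311, 115.5 and 76, of which replicates 1 and 2 were well above background. Water signals for CYP76M7 were 110.5, 213 and 171, none well above background, and the ratios were 2.31, -0.09 and 0.08. The difference was thus seen on replicate 1 alone. KSL10, the synthase gene of the oryzalexin branch, had vanadium signals of 70, 72 and 68.5, again not well above background anywhere. In a fit with no filter, CPS2 stood at -0.10 (adjusted p = 0.562), CYP76M7 at 0.77 (adjusted p = 0.204) and KSL10 at 0.05 (adjusted p = 0.691). CPS2 and KSL10 were thus not detected in either condition, and CYP76M7 differed on 1 array and was not called.

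The members were dim in water. Of their 16 probes, 2 were well above background in the water channel on all 3 arrays (12.5%), against 65.6% of all gene probes. In the vanadium channel 10 of 16 were (62.5%), against 69.7% of all gene probes. Both of the probes measured in water on every array belong to the momilactone cluster, 1 to CPS4 and 1 to CYP99A3. Probes of 1 gene share their target, so these counts describe the array content and are not replicates.

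The size of the rise depended on the processing. In the scanner software's own log ratio, made from its background-subtracted and dye-normalised signals, KSL4 stood at 6.43, CYP99A2 at 4.0, MAS at 3.55, CPS4 at 2.13, DPF at 2.03 and KSL7 at 1.83, while CYP99A3 stood at -0.36. The order of the first 4 was the same as above, and the same 6 were called. That scale put the median of all tested loci at -0.12, against 0.02 here, and 41.4% of all calls were higher on it against 58.3% here.

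**Figure D3:**
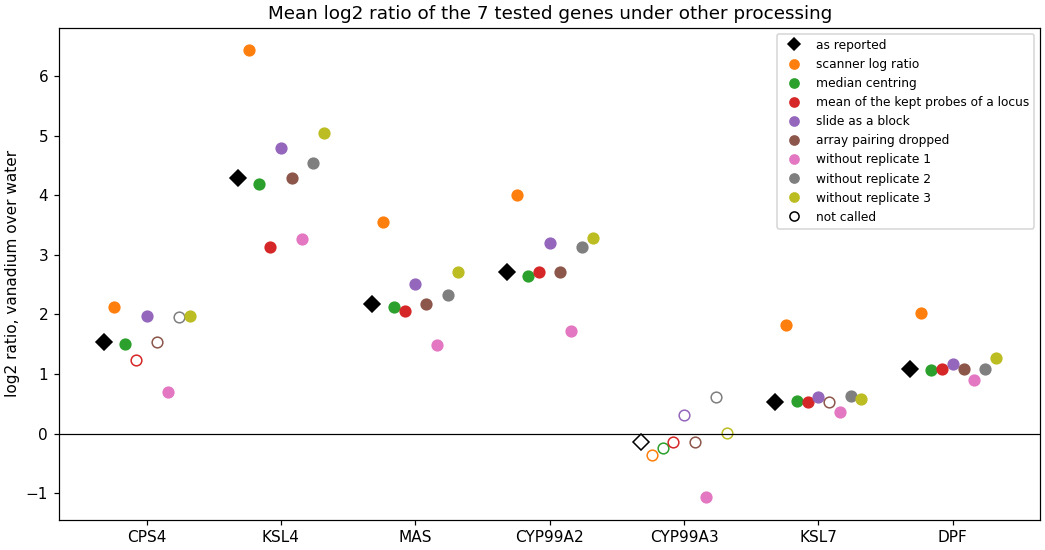
Mean log2 ratio of the 7 tested genes as reported (diamond) and under 8 other ways of processing, filled where the gene was called. KSL4 ranged from 3.12 to 6.43 and was called throughout, CPS4 ranged from 0.70 to 2.13, and CYP99A3 lay on both sides of 0, between -1.07 and 0.62.

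The 3 arrays did not show the momilactone genes to the same degree. Replicate 1 had the highest ratio of the 3 for all 7 tested members, as it did for 36.8% of all tested loci and 49.0% of the loci called higher at 2-fold or more. Ranked by the ratio on replicate 1 minus the mean of replicates 2 and 3, KSL4 came first of 21086 loci with a difference of 3.06. CYP99A2 was second with 2.96, CYP99A3 rank 4 with 2.77, CPS4 rank 6 with 2.54 and MAS rank 14 with 2.05. This ranking describes 1 array against 2 and has no test. A difference above 1 was found at 128 loci (0.607%), and 5 of these were the chromosome 4 members. On the scanner's log ratio the same 5 ranked 16, 8, 9, 33 and 29. DPF and KSL7 were further down, with differences of 0.56 (rank 608) and 0.49 (rank 863). Replicate 1 was also highest for the CPS2 and KSL10 probes, which were not well above background in either channel on any array.

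Without replicate 1 the rises were smaller. KSL4 then stood at 3.26 in place of 4.28 on the log2 scale, with a water signal not well above background on any array, CYP99A2 at 1.73 (3.31-fold in place of 6.56-fold), MAS at 1.49 (2.81-fold in place of 4.51-fold) and CPS4 at 0.70 (1.62-fold in place of 2.91-fold). Each of these 4 was still called. On replicates 2 and 3 the MAS water signal was not well above background either. Those of CYP99A2 and CPS4 were well above it on replicate 2 and not on replicate 3. Without replicate 3 KSL4 stood at 5.04. Replicate 1 was the only array on its slide, so the replicate and the slide cannot be told apart. It also differed in a green shoot marker, CAB1R, for a light-harvesting chlorophyll-binding protein, whose water signal was 1702 there and 244 and 247 on the others, with vanadium signals of 136, 195 and 139.5. Every other green shoot locus had its lowest raw water signal on replicate 1, where green negative control spots were also dimmest (89 against 160 and 154.5). Raw water signals near that level, such as 161, 211 and 172 at 1 locus, cannot be ranked between arrays. The log2 ratios of that locus were -0.31, 1.17 and 1.02, lowest on replicate 1, as were those of CAB1R (-2.93, 0.29 and -0.13). The water signal of CAB2R was 399 on replicate 1 and 1584.5 and 573 on the others. Over the 5 green shoot loci, replicate 1 had the lowest summed vanadium signal (13616.5) and the lowest summed water signal (18310.5), sums that 1 locus carries. Without that locus the other 4 summed in water to 2444, 2266.5 and 1290 on replicates 1, 2 and 3, and under vanadium to 736, 2574.5 and 1319.5, lowest on replicate 1. The water sum was highest on replicate 1 through CAB1R alone, which gave 1702 of the 2444. The part of shoot material in the momilactone values was not tested.

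The neighbourhood of the clusters was read from the order of locus numbers. Of 60 loci around the chromosome 4 members, 30 on each side, 30 were tested, of which 8 were called higher and 3 lower, with a median log2 ratio of 0.03. Over all tested loci, 29.8% were called higher and 21.3% lower. At 2-fold or more 2 of the 30 were higher and 0 lower, where 8.86% of all tested loci were higher by this rule. Of the 5 members 4 passed it, each by a probe kept only through the vanadium channel. Between the members lie 2 other loci on the array, and the 1 that was tested, Os04g0179100, was listed as a second dehydrogenase locus and rose by 1.34 ± 0.34 (adjusted p = 0.0178). The log2 ratios of Os04g0179100 were 2.53, 0.83 and 0.67, with replicate 1 again highest. Whether its probe also binds MAS transcripts was not tested. Around the chromosome 2 members, 38 of 60 loci were tested, with 12 higher, 14 lower, 6 higher at 2-fold or more and a median of -0.05. These 60 include CYP76M5, CYP76M8, KSL5, KSL6 and CYP76M6, which are themselves listed below as diterpenoid phytoalexin enzymes. Of these, only CYP76M6 was tested, and it was called higher. The 2 loci between the chromosome 2 members, CYP71Z6 and CYP71Z7, P450 genes of that cluster, were not tested.

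**Figure D4:**
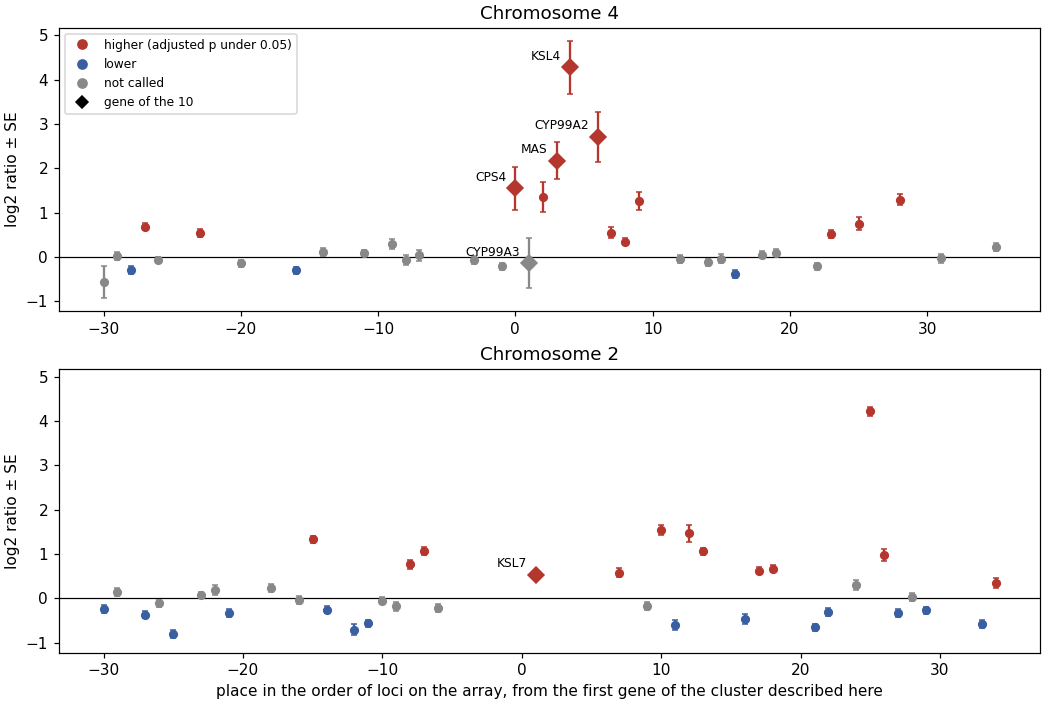
Mean log2 ratio of each tested locus in the order of locus numbers around the chromosome 4 and the chromosome 2 members. Members are named diamonds, and all other loci, also those between members, are circles. KSL4 (4.28), CYP99A2 (2.71) and MAS (2.17) stand above the loci that flank them on chromosome 4, where the median was 0.03.

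Most of the genes that supply the precursor rose. Of 10 loci listed for the plastid methylerythritol phosphate pathway and geranylgeranyl diphosphate synthase, 9 were tested, of which 8 were called higher and 1 lower, with a median of 0.79 against 0.02 for all tested loci. Among all tested loci, 29.8% were called higher and 21.3% lower. DXR, for the reductoisomerase that commits carbon to the pathway, rose by 1.23 ± 0.10 (adjusted p = 0.000154), with ratios of 1.45, 1.11 and 1.13. HDR, for the last reductase of the pathway, stood at 0.89 ± 0.20 (adjusted p = 0.0106), MCS at 0.84, HDS at 0.80, CMK at 0.48 and CMS at 0.35, all 5 called higher. Unlike most members, these 9 loci were well above background in both channels on all 3 arrays. The count called higher was 5 with median centring of the arrays in place of loess, and 3 with the channels fitted without pairing.

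Other enzymes of the diterpenoid phytoalexins were mostly dim. Of 11 such loci, 4 were tested, 3 were called higher and 0 lower, where 29.8% of all tested loci were called higher. Of the 3, CYP701A8 and Os04g0179100 passed the filter only through the vanadium channel, where they are high, and with no filter 3 of the 11 were called higher, with a median of 0.12. CYP701A8, for a P450 of the kaurene oxidase family that acts in phytoalexin synthesis, had vanadium signals of 1667, 516 and 282 and water signals of 164, 264 and 169. Its ratios were 4.22, 1.41 and 1.60, with a mean of 2.41 ± 0.51 (adjusted p = 0.00935). CYP701A8 was higher in vanadium on every array, most so on replicate 1, and it ranked 5 for the difference between replicate 1 and the others. CYP76M6, a P450 gene close to the chromosome 2 members in locus order, rose by 0.58 ± 0.10, and the untested loci included KSL5, KSL6, CYP76M5 and CYP76M8. With no pairing of the channels, 0 of the 4 were called, and with a filter on both channels 1 of 2.

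Gibberellins, the growth hormones, are made from the same precursor. Of 4 loci listed for that branch, 2 were tested and neither rose. KO2, the kaurene oxidase gene of the hormone branch, fell by 0.47 on the log2 scale (SE 0.12, adjusted p = 0.0180), with ratios of -0.76, -0.19 and -0.46. KS1, for the kaurene synthase, stood at 0.12 ± 0.10 (adjusted p = 0.340). CPS1, the class II cyclase gene of the hormone branch, and KAO, for the oxidase that follows, were not tested. The single locus listed for the enzyme of a flavonoid phytoalexin was lower, at -0.55.

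Of 6 loci listed as regulators of phytoalexin genes, 5 were called higher and 0 lower, with a median of 2.66. Of all tested loci, 29.8% were called higher and 21.3% lower. The count of regulators called higher was 4 to 5 under the 15 other ways of processing. The symbols of 2 of the 6 were found in the RefSeq gene table on the same chromosome. The others rest on the locus number alone. WRKY76 rose by 3.69 ± 0.20 (adjusted p = 3.31e-05), with ratios of 3.47, 3.26 and 4.36, and WRKY62 by 2.98 ± 0.22 (adjusted p = 0.000111), with ratios of 2.30, 3.11 and 3.54. In rice both of these factors are known chiefly as repressors of defence genes, phytoalexin genes among them. WRKY62 passed the filter only through the vanadium channel, with a water signal well above background on 2 of 3 arrays. The other 3 called higher stood at 2.80, 2.51 and 0.25, and the sixth at -0.28 (adjusted p = 0.0618). That locus was called lower on the scanner's log ratio, with median centring and with the mean of kept probes. Replicate 1 had the highest ratio for 1 of the 6 regulators and replicate 3 for 4 of them, whereas replicate 1 was highest for 8 of the 9 tested precursor loci and for all 7 tested members.

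**Figure D5:**
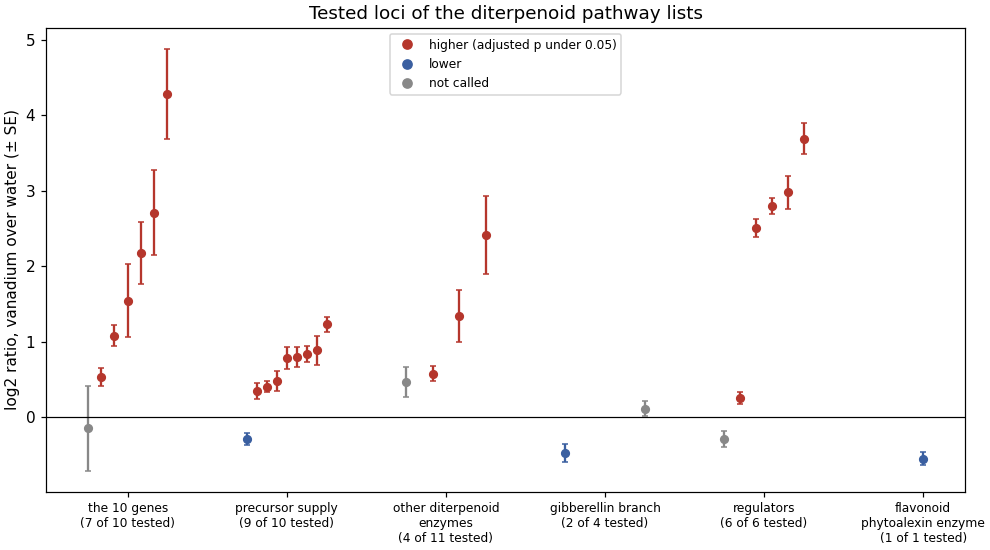
Mean log2 ratio of every tested locus, by gene group, with bars of 1 SE over 3 arrays, coloured by call. The regulators had a median of 2.66, the precursor loci one of 0.79, and the 2 tested gibberellin loci lay at -0.47 and 0.12.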

How the data were processed

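Spot intensity and local background in both channels were deposited as the scanner software read them, made with Agilent Feature Extraction 10.7.1.1 per the file headers. The deposited array files also hold that software's log10 ratio of red over green. The value table that the authors deposited is in log2 and matched, within 0.001, the log2 ratio of the processed red and green intensities at 100% of 41865 single-spot probes, with medians of -0.05, -0.19 and -0.20 on replicates 1, 2 and 3, so it was not centred.

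Median signals were corrected for background by normexp (offset 50), then normalised by loess within each array, with control spots at weight 0 (limma 3.58.1, R 4.3.3). Outlier-marked spots were left out (306 to 1090 of 45151 per array), and none was saturated. Probes were kept where red, or else green, was well above background on every one of the 3 arrays, and the brightest kept probe stood for its locus. The mean log2 ratio was tested against 0 with limma's 2-sided moderated test, with Benjamini-Hochberg adjustment over 21086 loci. The RNAs of a replicate share an array, so the ratio is the paired comparison. SEs are those of this test, which draws each variance toward one shared by all loci. Steps were tested on simulated data.

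All 10 members are named with their values, and other loci only where the reference table holds the symbol (assembly ASM3414082v1, used for names). It held the symbols of 6 of the 10 precursor loci and 8 of the 11 other diterpenoid enzymes, and not that of the flavonoid enzyme. The place of the remaining loci in these lists rests on the locus number alone. The members, lists and tests were chosen with earlier results of these data known. The number of arrays limits the precision.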

Additional observations from a re-analysis of the deposited data

How the results depend on the processing

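Of 15 other ways of processing, 13 were distinct, since slide 2 only equals leaving out replicate 1 and the deposited value table equals the scanner's log ratio. Over these, KSL4, MAS, CYP99A2 and DPF kept their direction and their call wherever they were tested. Of 86 values of single members under the 13, 76 kept direction and side of the threshold, 6 lost the call, 1 gained one and 3 turned sign, all 3 of CYP99A3, which stood at 0.32 with the slide as a block and ranged from -1.07 to 0.62 with 1 replicate left out. With a filter on both channels 2 members were tested and 0 were called higher, since the other momilactone genes were not bright in water. With slide 2 only, 1 member was called lower, and leaving out a replicate gave 0 to 1. Fitting the channels without the pairing by array (no replicate block) called 4 members higher, lost CPS4 (adjusted p = 0.280) and KSL7 (adjusted p = 0.0718), and gave 3195 loci higher and 1343 lower (70.4% higher) against 6280 and 4495. The scanner's log ratio and the deposited value table each called 6908 loci lower and 4884 higher, and median centring 4072 higher. With 1 replicate left out, 4947 to 5687 loci were higher and 2880 to 3619 lower. A normexp correction of the scanner's background-subtracted signal, chosen after seeing the data, also called 6 members higher. Causes of these changes were not tested. Water signals near background limit the fold of all 6 called members.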
